A study of Mus musculus with 27 samples.

Results

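Mouse bone marrow-derived macrophages (BMDM) stimulated with lipopolysaccharide (LPS) for the first time were compared with BMDM that met LPS for a second time. LPS acute cells were kept without ligand for 24 h, washed, and given 100 ng/ml LPS for 4 h. LPS re-stimulated cells were first kept for 24 h in 100 ng/ml LPS, washed, and given 100 ng/ml LPS for another 4 h. Naive cells received no ligand. All cells came from female C57BL/6 mice aged 6 to 8 weeks and were differentiated for 7 days in L929 conditioned medium, from marrow that, per the study's methods, was pooled from several mice, with a pool for each replicate. Whether groups shared a pool is not stated. The comparison uses 5 of the 27 arrays of the series, 3 of LPS acute and 2 of LPS re-stimulated cells, chosen by their sample labels, and the 3 naive arrays are shown beside them. LPS re-stimulated replicate 3 carries no deposited normalized values because its submitters judged it to be of low quality. The question is which parts of the first response to LPS return, which are lost and which are larger on the second exposure.

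LPS is a component of the outer membrane of Gram-negative bacteria and is sensed by TLR4 with its partners MD-2 and CD14. TLR4 signals through MyD88 to NF-κB and MAP kinases, and through TRIF to IRF3, which drives interferon β and, by way of its receptor, the interferon-stimulated genes. Macrophages that have met LPS once respond differently to the next dose, a state known as endotoxin tolerance, in which some cytokines are made in smaller amounts while other genes stay inducible.

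Each array holds 1 value for each of 55681 probes, given as log2 intensity. Probes well above background made up 47.6% to 54.3% of the LPS acute arrays, 47.6% and 42.6% of the LPS re-stimulated arrays and 45.8% to 74.6% of the naive arrays, the highest on naive replicate 3. All 8 macrophage markers were above background in both LPS groups, with a summed log2 level of 19.01 to 19.19 in acute and 19.58 to 19.63 in re-stimulated cells. Of these, Csf1r and Fcgr1 were called higher and Itgam and Mertk lower in re-stimulated cells, while Adgre1, Cd68, Lyz2 and Cd14 did not pass. The LPS acute arrays lay on 3 slides of their own, scanned on 2 days. All other arrays, the LPS re-stimulated and naive ones included, shared 3 other slides and 1 scan day, each slide holding 1 replicate number, so that there slide and replicate cannot be told apart either. Slide and stimulus therefore cannot be told apart in any difference between acute and re-stimulated cells, while naive and re-stimulated replicates 1 and 2 can be compared within slides. Arrays within a group correlated at r = 0.98 or above over the tested probes, and arrays of different groups at 0.92 to 0.94.

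A probe was tested where 2 or more acute arrays, or both re-stimulated arrays, marked it as well above background. Of 28592 such probes 9772 differed between acute and re-stimulated cells by at least 1.5-fold at an adjusted p below 0.05 (limma, Benjamini-Hochberg), which is 34.2% of those tested. Of these, 4853 probes (17.0% of those tested) were lower and 4919 (17.2%) were higher in re-stimulated cells. The median difference of all tested probes was −0.02 log2 units. Counts for gene lists below are to be read beside these shares of 17.0% lower and 17.2% higher. Differences of 16-fold or more were found for 148 lower and 163 higher probes. For 1112 of the lower probes neither re-stimulated array was above background, and for 256 of the higher probes no acute array was. Without re-stimulated replicate 1, 5862 probes were called, and without replicate 2, 4843. Those fits, here and for single genes below, take their spread from the acute arrays alone and assume that the lone re-stimulated array varies like them, so a lost call is not a smaller difference. With LPS re-stimulated replicate 3, the rejected array, on which 92.3% of probes were well above background, added from its scanner file, 1799 probes were called. Against all 3 naive arrays, 913 of 27915 probes (3.27%) were higher and 668 (2.39%) were lower in re-stimulated cells. Naive replicate 3 shared its slide with the rejected re-stimulated array, so it had no re-stimulated partner in this comparison. Without this naive array, 3013 of 25802 probes (11.7%) were higher and 3448 (13.4%) lower. With slide as a block these counts were 2978 and 3425. Values against naive cells below use all 3 naive arrays unless stated otherwise. A fold change below is the antilog of a difference between means of log2 intensities, and SE is its standard error in log2 units. Where no array of a group was above background, the fold change rests on undetected signal and is given with the word about.

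One feature of the arrays touches many of these differences. A set of genes known from neutrophils and immature myeloid cells separated replicates 1 and 2 from replicate 3 on the shared slides. S100a9, a calcium-binding alarmin of neutrophils, ranged from 14.25 to 17.57 on the 13 replicate 1 and 2 arrays of the 7 groups that received no LPS, and from 4.57 to 8.08 on their 7 replicate 3 arrays. The LPS re-stimulated group consists of replicates 1 and 2, so it lacks the replicate that is low. For each probe the difference between replicates 1 and 2 and replicate 3, averaged over those 7 groups, is given below as the replicate difference. In this signed mean differences of opposite sign cancel, so a small value can hide large ones in single groups. The replicate difference reached 1.5-fold in 4588 of the 28592 tested probes, in 20.7% of those called higher and in 21.1% of those called lower. A test of the remaining probes alone called 8004, of which 7728 were also called, in the same direction, over all probes. The part of the replicate difference in any single call was not tested.

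Cytokines of the first response were mostly lower on the second. Of 20 tested genes of the TNF and interleukin list, 15 fell, 4 rose and 1 did not pass, beside 17.0% lower and 17.2% higher among all probes. The median difference of the list was −2.01, beside −0.02 for all probes. A replicate difference of 1.5-fold or more was found in 9 of the 20 and in 8 of the 15 that fell. Il12b, the p40 subunit shared by IL-12 and IL-23, stood at 12.69, 12.89 and 12.84 in acute cells, at 7.39 and 7.65 in re-stimulated cells, and at 3.02, 3.88 and 3.11 in naive cells. The groups did not overlap, and re-stimulated cells lay between naive and acute cells. The fall was 5.29 log2 units (SE 0.20, adjusted p = 0.000171), or 39.0-fold. The replicate difference of Il12b was 0.22, with −3.01 in the lowest and 4.06 in the highest group. Its probe lies at chr11:44227121-44227180 (mm9). On the rejected LPS re-stimulated replicate 3 array Il12b stood at 12.42 on rebuilt values, near the acute cells, and with that array the fall did not pass (adjusted p = 0.18). Il6, an inducer of the acute-phase response, was at 16.11, 15.77 and 15.64 in acute and at 11.19 and 10.92 in re-stimulated cells, a 27.6-fold fall (SE 0.23, adjusted p = 0.000214), yet was still 8.10 log2 units above naive cells (adjusted p = 0.00796). The replicate differences of Il6, Tnf and Il10 were −1.04, −1.54 and −1.79.

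Tnf fell 9.34-fold, from 16.78, 17.00 and 17.57 in acute to 13.84 and 13.94 in re-stimulated cells (adjusted p = 0.000913). Naive cells had 9.0, 9.53 and 13.44, so the naive and re-stimulated groups came close only through naive replicate 3. Il10, an anti-inflammatory cytokine, was at 11.12, 10.15 and 10.13 in acute cells and at 6.82 and 5.93 in re-stimulated cells, a 17.1-fold fall (SE 0.41, adjusted p = 0.00143). Naive cells had 4.73, 5.49 and 8.45, so re-stimulated Il10 exceeded naive replicates 1 and 2 and lay below naive replicate 3. Il33, an alarmin, was above background on all 3 acute arrays (10.00, 9.08 and 6.49) and on neither re-stimulated array, and was about 74.9-fold lower (adjusted p = 0.00478). Il12a, the p35 subunit of IL-12, was likewise above background in acute cells only and was about 4.76-fold lower (adjusted p = 0.00288). Il23a was not above background on enough arrays to be tested.

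The interleukin 1 genes went the other way. Il1b rose 11.5-fold, from 12.34, 12.27 and 12.39 in acute to 15.57 and 16.13 in re-stimulated cells (SE 0.24, adjusted p = 0.000509), against 4.70, 6.71 and 6.64 in naive cells. All re-stimulated values exceeded all acute values, which in turn exceeded all naive values. Il1a rose 3.95-fold (SE 0.28, adjusted p = 0.00405), a call lost in a fit over all 9 groups (adjusted p = 0.137), and Inhba, a subunit of activin A, rose by 1.57 log2 units with a replicate difference of 2.04. The Inhba call was lost without re-stimulated replicate 2 (adjusted p = 0.051). Csf3, the granulocyte growth factor, was 1.33 higher in re-stimulated cells and did not pass (adjusted p = 0.105). It passed without LPS acute replicate 3 (adjusted p = 0.021).

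**Figure D1:**
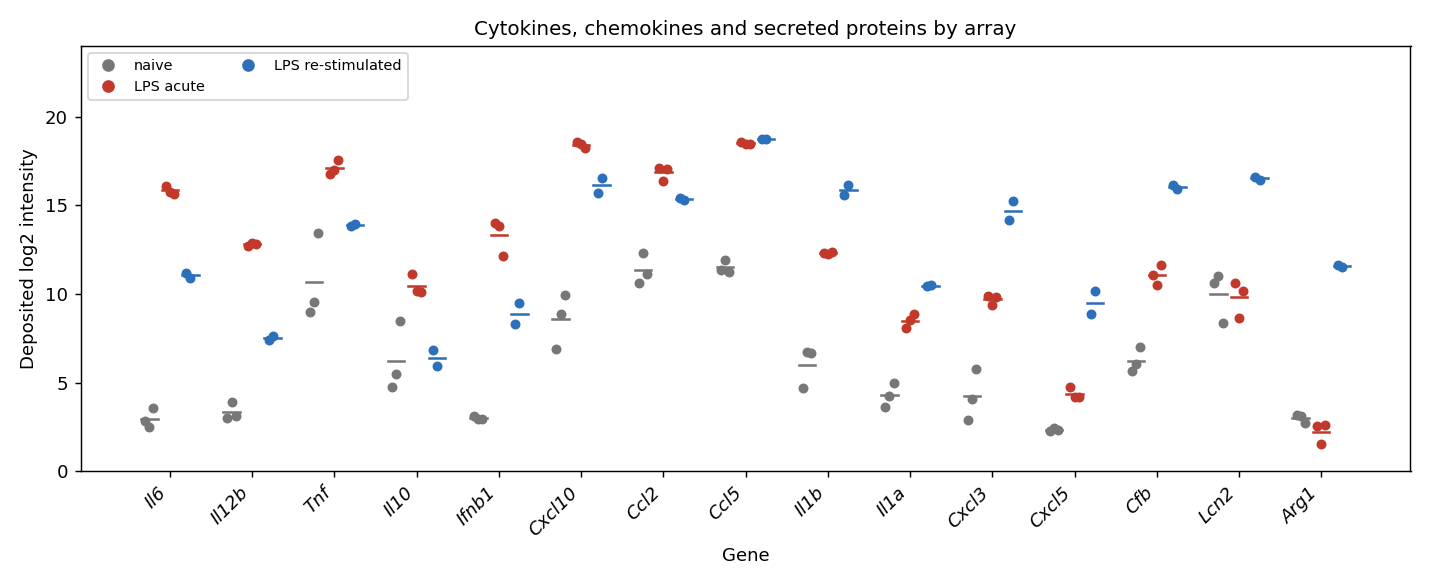
Deposited log2 intensity (vertical axis) of 15 secreted products (horizontal axis) on each naive, LPS acute and LPS re-stimulated array, with points for arrays and short lines for group means. Il6, Il12b, Tnf, Il10 and Ifnb1 are lower in re-stimulated than in acute cells, Ccl5 lies at 18.45 or above in both, and Il1b, Cxcl3, Cxcl5, Cfb, Lcn2 and Arg1 are higher.

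Chemokines moved in both directions. Of 23 tested, 9 fell, 6 rose and 8 did not pass, with a median of −0.49. A replicate difference of 1.5-fold or more was found in 17 of the 23, in 5 of the 9 that fell and in 5 of the 6 that rose. Cx3cl1, the membrane-bound chemokine fractalkine, fell 22.1-fold (adjusted p = 0.000413) and the monocyte attractants Ccl7 and Ccl12 fell by 3.15 and 2.62 log2 units. Cxcl10 and Cxcl9, interferon-inducible T cell attractants, fell 4.87-fold and 3.93-fold, and both remained above naive cells by 7.56 and 8.01 log2 units. The Cxcl9 call was lost in a fit over all 9 groups (adjusted p = 0.178), and the Cxcl10 call when slide was added to that fit (0.055). Ccl2 fell 2.80-fold (adjusted p = 0.00994), a call that was lost without re-stimulated replicate 2 (adjusted p = 0.063), in the fit over all 9 groups (0.067) and with slide added to it (0.102). The neutrophil attractants Cxcl5 and Cxcl3 rose. Cxcl5 went from 4.77, 4.18 and 4.17 in acute cells to 8.86 and 10.15 in re-stimulated cells, 35.0-fold (SE 0.42, adjusted p = 0.000774), with a replicate difference of 2.43. Cxcl3 went from 9.87, 9.38 and 9.83 to 14.16 and 15.24, 32.2-fold (SE 0.36, adjusted p = 0.000586), with a replicate difference of 1.54. Ccl5 was at 18.60, 18.45 and 18.45 in acute and 18.72 on both re-stimulated arrays, a difference of 0.22 (SE 0.19, adjusted p = 0.392) close to the highest value of the table. Ccl8 differed by 0.72 (SE 0.31, adjusted p = 0.117).

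Of 8 tested interferon genes 7 fell and none rose. Ifnb1, the interferon that TLR4 induces through TRIF, was at 13.99, 13.86 and 12.14 in acute cells and at 8.30 and 9.47 in re-stimulated cells, a 21.8-fold fall (SE 0.64, adjusted p = 0.00409). Naive cells had 3.13, 2.95 and 2.93, so re-stimulated cells still held 5.88 log2 units more (adjusted p = 0.00949). Of 41 tested interferon targets, 27 fell, 5 rose and 9 did not pass, with a median of −1.51. Against naive cells 21 of the 41 were called higher and 0 lower in re-stimulated cells, beside 3.27% and 2.39% of all probes. Without naive replicate 3 these counts were 30 and 0 of 41, beside 11.7% and 13.4% of all probes. Cmpk2, a mitochondrial nucleotide kinase, fell from 17.28, 17.12 and 17.21 to 12.62 and 12.96, 21.3-fold (SE 0.21, adjusted p = 0.000213). Rsad2, the antiviral protein viperin, fell from 18.37, 18.27 and 18.03 to 13.99 and 14.69, 14.8-fold (adjusted p = 0.000543). Gbp5, a guanylate-binding protein that acts on bacteria in the cytosol, fell 14.7-fold (adjusted p = 0.000701). These 3 genes were higher in re-stimulated than in naive cells by 2.49, 3.30 and 4.57 log2 units, each called.

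Sensors and regulators of the interferon response differed in size of change. Ifih1, the RNA sensor MDA5, fell 9.55-fold, Nlrc5, an activator of MHC class I genes, fell 4.71-fold and Usp18, which removes ISG15 and restrains the interferon receptor, fell 4.25-fold. Isg15 fell 2.34-fold (adjusted p = 0.0108), a call lost without re-stimulated replicate 2 (adjusted p = 0.074) and with median scaling (0.14). Azi2, an adapter of the kinase TBK1, fell 1.73-fold, and that call was lost without any 1 of LPS acute replicate 1 or 2 and re-stimulated replicate 1 or 2 (adjusted p = 0.08 to 0.12). Dhx58, the RNA sensor LGP2, was 0.62 lower and did not pass (adjusted p = 0.102). Trim25, an E3 ligase that activates RIG-I, rose 8.73-fold (adjusted p = 0.000418), with a replicate difference of 1.13. Its mean was 14.34 in acute and 14.48 in naive cells. Irf7, the factor that amplifies interferon α production, rose 4.67-fold, from 13.17, 12.98 and 13.77 to 15.47 and 15.59 (adjusted p = 0.00282). The replicate difference of Irf7 was 0.59, just over 1.5-fold. Zbp1, a sensor of left-handed nucleic acid, rose 2.11-fold (adjusted p = 0.0124), a call lost without re-stimulated replicate 1 (adjusted p = 0.075). Oas3, a maker of the RNase L activator, rose 2.40-fold (adjusted p = 0.0173), lost without acute replicate 2 or either re-stimulated replicate (adjusted p = 0.05 to 0.08).

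**Figure D2:**
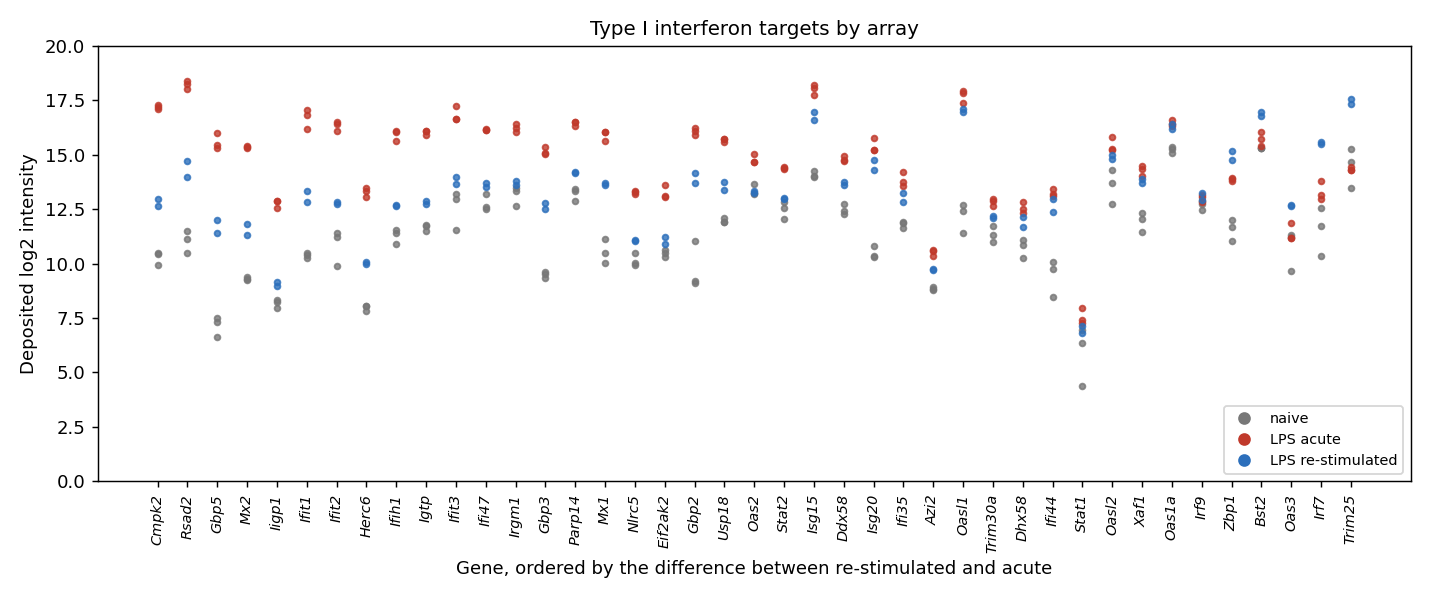
Deposited log2 intensity (vertical axis) of the 41 tested type I interferon targets (horizontal axis, ordered by the difference between re-stimulated and acute cells) on each naive, LPS acute and LPS re-stimulated array. From Cmpk2 to Azi2 all acute values lie above the re-stimulated ones, and at the right end, from Zbp1 to Trim25, they lie below.

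The promoters of 7 of these genes are shown because members of the same family, with the same kind of motif, changed in opposite directions. The 250 bases before the start are from RefSeq, build GRCm38.p6, read on the gene's strand. Capitals mark the interferon-stimulated response element (ISRE), searched as GAAA, any 2 bases and GAAA again, and the NF-κB consensus, both on either strand, and adjoining or overlapping matches run together. Rsad2, Gbp5 and Isg15 fell, Oas3 rose, Cxcl10 and Il6 fell, and Cxcl3 rose.
Rsad2 (chr12:26456453-26456702, minus strand): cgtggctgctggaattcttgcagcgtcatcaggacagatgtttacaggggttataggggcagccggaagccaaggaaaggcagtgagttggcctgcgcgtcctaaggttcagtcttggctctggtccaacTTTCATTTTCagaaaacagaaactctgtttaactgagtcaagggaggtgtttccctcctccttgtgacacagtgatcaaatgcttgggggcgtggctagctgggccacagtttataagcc
Gbp5 (chr3:142496684-142496933, plus strand): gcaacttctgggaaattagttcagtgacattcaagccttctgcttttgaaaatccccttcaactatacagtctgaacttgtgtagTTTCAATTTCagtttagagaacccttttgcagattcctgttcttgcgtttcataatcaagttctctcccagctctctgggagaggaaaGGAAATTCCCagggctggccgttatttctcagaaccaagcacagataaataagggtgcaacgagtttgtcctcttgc
Isg15 (chr4:156200819-156201068, minus strand): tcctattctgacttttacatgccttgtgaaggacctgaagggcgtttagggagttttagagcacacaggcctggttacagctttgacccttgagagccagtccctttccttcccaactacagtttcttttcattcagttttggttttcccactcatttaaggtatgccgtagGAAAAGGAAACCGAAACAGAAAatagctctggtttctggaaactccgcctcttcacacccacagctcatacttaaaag
Oas3 (chr5:120777660-120777909, minus strand): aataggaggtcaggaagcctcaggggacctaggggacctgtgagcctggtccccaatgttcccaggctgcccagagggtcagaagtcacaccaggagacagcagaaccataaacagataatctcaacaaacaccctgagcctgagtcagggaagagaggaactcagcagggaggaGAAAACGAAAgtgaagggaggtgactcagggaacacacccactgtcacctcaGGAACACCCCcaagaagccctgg
Cxcl10 (chr5:92348890-92349139, minus strand): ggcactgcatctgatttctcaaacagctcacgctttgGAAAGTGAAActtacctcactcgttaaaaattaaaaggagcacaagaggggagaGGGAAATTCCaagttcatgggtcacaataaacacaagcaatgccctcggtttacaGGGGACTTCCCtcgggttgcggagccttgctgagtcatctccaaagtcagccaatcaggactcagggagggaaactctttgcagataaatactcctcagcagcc
Il6 (chr5:30012864-30013113, plus strand): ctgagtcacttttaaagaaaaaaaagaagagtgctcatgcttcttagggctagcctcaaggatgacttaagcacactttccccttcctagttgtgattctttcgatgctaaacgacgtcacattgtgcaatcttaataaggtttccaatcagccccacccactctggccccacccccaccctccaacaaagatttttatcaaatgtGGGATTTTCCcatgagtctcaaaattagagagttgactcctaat
Cxcl3 (chr5:90785851-90786100, plus strand): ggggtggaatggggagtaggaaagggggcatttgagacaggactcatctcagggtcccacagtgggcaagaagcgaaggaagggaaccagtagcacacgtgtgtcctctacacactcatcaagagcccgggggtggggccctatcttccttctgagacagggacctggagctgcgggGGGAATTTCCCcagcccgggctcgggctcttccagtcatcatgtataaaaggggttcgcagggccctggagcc
The ISRE was found in 2.98% of 32851 promoters of this length and the NF-κB consensus in 7.25%. Among interferon targets with a promoter in the table, the ISRE was in 11 of 20 that fell, 2 of 4 that rose and 1 of 7 that did not pass. Isg15 held 3 overlapping matches, 78, 72 and 66 bases before the start. Cxcl10 held 1 ISRE and 3 NF-κB matches, 2 of which overlap. In the TNF and interleukin list the NF-κB consensus was in 4 of 11 genes that fell and in 0 of 3 that rose, and among chemokines in 2 of 6 that fell and 1 of 3 that rose. The ISRE stood in interferon targets of both directions, and a match says nothing about binding.

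Inhibitors of the pathway moved both ways. Of 38 tested, 16 fell, 9 rose and 13 did not pass, with a median of −0.10. Among all probes 17.0% fell and 17.2% rose. Dusp2, a MAP kinase phosphatase, fell 24.4-fold, from 14.91, 14.75 and 14.38 to 10.72 and 9.42 (adjusted p = 0.000969). Nfkbiz, a nuclear IκB protein, fell 9.39-fold (adjusted p = 0.000999) and Socs1, which blocks JAK signalling, fell 6.43-fold (adjusted p = 0.002). The decoy receptor Il1r2 was above background on no acute array and rose about 13.9-fold (adjusted p = 0.000444), with a replicate difference of 3.22. Il18bp, which neutralizes IL-18, rose 4.08-fold (adjusted p = 0.00313). Dusp4, another MAP kinase phosphatase, rose 4.86-fold (adjusted p = 0.0123), a call lost without re-stimulated replicate 2 (adjusted p = 0.062).

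Of 33 tested receptor and adapter genes, 6 fell, 3 rose and 24 did not pass, with 17.0% of all probes lower and 17.2% higher. Tlr4 itself differed by −0.69 (SE 0.30, adjusted p = 0.126). Tlr3, the receptor for double-stranded RNA, was at 9.89, 9.42 and 9.13 in acute cells and at 5.92 and 5.34 in re-stimulated cells, a 14.4-fold fall (adjusted p = 0.000731). Cd180, a relative of TLR4, fell 3.24-fold (adjusted p = 0.00414). Among transcription factors 13 of 32 tested fell and 4 rose. Rel, the NF-κB subunit c-Rel, was above background in acute cells only and fell about 15.6-fold (adjusted p = 0.0026). Batf2 and Irf1 fell 14.7-fold and 9.25-fold, and Irf1 at 13.01 and 13.44 lay near the naive values of 12.74, 13.10 and 13.03. Nfkb1, which encodes p105 and p50, fell 3.18-fold (adjusted p = 0.00419), whereas Bcl3, a partner of p50, differed by 0.53 (SE 0.31, adjusted p = 0.228). The AP-1 members Fosl2 and Fosl1 rose 10.8-fold and 5.78-fold, and Cebpb, a factor of acute-phase genes, rose 5.89-fold, from 12.98, 12.75 and 12.78 to 15.33 and 15.46 (adjusted p = 0.000679).

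Antimicrobial and acute-phase proteins were mostly higher. Of 27 tested, 17 rose, 2 fell and 8 did not pass, with a median of 1.23. A replicate difference of 1.5-fold or more was found in 18 of the 27 and in 11 of the 17 that rose. S100a9 stood at 3.29, 2.90 and 2.69 in acute cells, above background on none of the 3 arrays, and at 15.10 and 14.75 in re-stimulated cells. It was about 3997-fold higher (adjusted p = 8.59e-05), a size that rests on undetected acute signal. Naive cells had 15.63, 16.20 and 4.57, so re-stimulated S100a9 was no higher than in naive replicates 1 and 2. Ltf, the granule protein lactoferrin, followed the same pattern with 3.29, 2.51 and 2.51 in acute, 10.53 and 10.30 in re-stimulated, and 10.86, 11.43 and 2.09 in naive cells. Ly6g, the surface marker of neutrophils, was at 2.98, 2.96 and 3.78, then 11.67 and 12.77, with 8.91, 9.60 and 2.54 in naive cells. For S100a9, Ltf and Ly6g the replicate differences were 9.47, 7.78 and 6.66. On the rejected replicate 3 array of re-stimulated cells they stood at 5.30, 2.76 and 4.51 on rebuilt values, far below the other re-stimulated arrays. With that array none of their rises passed (adjusted p = 0.13, 0.24 and 0.16). Ngp, also on the neutrophil list, went the other way, at 10.72 there against 9.81 and 9.12 on the other re-stimulated arrays. On the list of 8 neutrophil markers, 3 were called higher and 0 lower, 3 were above background on at least 2 acute arrays and 5 on both re-stimulated arrays. Their summed log2 level was 12.28 to 12.55 in acute, 13.58 to 14.30 in re-stimulated and 12.09 to 13.83 in naive cells. The part of these cells in any result was not tested, and more cells of a type cannot be told apart from more RNA per cell.

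Other defence genes rose with replicate differences smaller than those of S100a9, Ltf and Ly6g. Lcn2, an iron-scavenging lipocalin, was at 10.61, 8.65 and 10.18 in acute cells, at 16.61 and 16.43 in re-stimulated cells and at 10.60, 11.02 and 8.33 in naive cells. All re-stimulated arrays exceeded all others, and Lcn2 rose 105-fold over acute cells (SE 0.56, adjusted p = 0.000833) and by 6.54 log2 units over naive cells (adjusted p = 0.0293). The replicate difference of Lcn2 was 1.66, with −2.77 in the lowest and 4.48 in the highest group. Hp, haptoglobin, rose by 6.52 with a replicate difference of 0.22. Cfb, factor B of the alternative complement pathway, rose from 11.09, 10.51 and 11.61 to 16.17 and 15.92, 31.4-fold (adjusted p = 0.000524), against 5.67, 6.04 and 6.98 in naive cells. The replicate difference of Cfb was 0.21, with −1.13 in the lowest and 1.55 in the highest group. In the complement list of 19 genes tested, 5 rose and 4 fell, beside 17.2% higher and 17.0% lower among all probes. Cd55, which protects cells from complement, fell 19.3-fold with a replicate difference of −3.50. C3 rose 2.62-fold (adjusted p = 0.0223), a call lost without any array but LPS acute replicate 3 (adjusted p = 0.054 to 0.11).

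**Figure D3:**
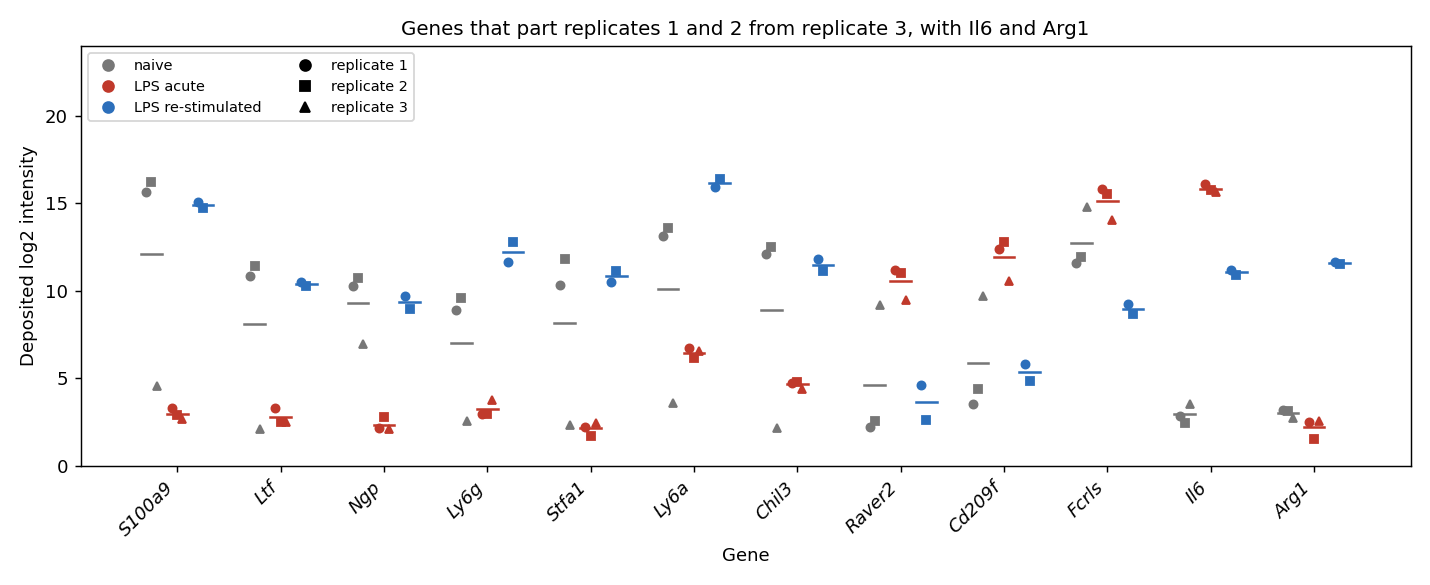
Deposited log2 intensity (vertical axis) of 12 genes (horizontal axis) on naive, LPS acute and LPS re-stimulated arrays, with the replicate number as the shape of the point and short lines for group means. From S100a9 to Chil3 naive replicate 3 lies below naive replicates 1 and 2 and all 3 acute arrays lie below both re-stimulated arrays, Raver2, Cd209f and Fcrls show the reverse, and for Il6 and Arg1 the naive arrays lie together.

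Arg1 and Mrc1, both used as markers of alternatively activated macrophages, moved in opposite directions. Arg1, which turns arginine into ornithine and whose probe lies at chr10:24636194-24636253 (mm9), was at 2.52, 1.55 and 2.59 in acute cells and 3.18, 3.14 and 2.72 in naive cells, and at 11.63 and 11.54 in re-stimulated cells. It was not above background on any acute array, and the rise was about 596-fold (adjusted p = 0.000163). The replicate difference of Arg1 was 1.13, with −2.81 in the lowest and 2.90 in the highest group. On the rejected LPS re-stimulated replicate 3 array Arg1 stood at 7.37 on rebuilt values, between the groups. Mrc1, the mannose receptor, was at 12.05, 11.89 and 11.85 in acute and 7.77 and 6.78 in re-stimulated cells, a 25.3-fold fall (adjusted p = 0.000524). It was also 4.72 below naive cells (adjusted p = 0.021). Pparg, a lipid-sensing nuclear receptor, fell 6.24-fold from acute and by 4.16 log2 units from naive cells (adjusted p = 0.00796). Of 20 tested genes of this list, 9 rose and 6 fell, 7 of the 9 with a replicate difference of 1.5-fold or more, Chil3 (8.40) and Thbs1 (2.21) among them.

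Surface molecules of activation fell in 10 and rose in 4 of 17 tested. A replicate difference of 1.5-fold or more was found in 2 of the 10 and in 3 of the 4. Cd69, an early activation antigen, was at 15.95, 15.85 and 15.57 in acute cells and 9.45 and 9.03 in re-stimulated cells, a 93.9-fold fall (SE 0.24, adjusted p = 0.000154). Cd83 fell 30.4-fold to 10.47 and 9.28, below the naive values of 11.83, 12.57 and 12.91. Cd40, the receptor for T cell help, fell 14.3-fold (adjusted p = 0.000619). Tnfrsf9, the costimulatory receptor 4-1BB, rose from 11.67, 11.82 and 11.82 to 16.14 and 15.97, 19.5-fold (adjusted p = 0.000202), and Cd38, an enzyme that consumes NAD, rose 12.0-fold (adjusted p = 0.00387). The replicate differences of Cd69, Tnfrsf9 and Cd38 were −0.96, 1.24 and 1.38. In the MHC class I and II lists 0 genes were lower, and 3 of 19 and 3 of 11 tested were higher, beside 17.2% of all probes.

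Genes of glycolysis and of the HIF-1 response rose in 15, fell in 3 and did not pass in 7 of 25 tested, with a median of 1.07. Ankrd37, a HIF-1 target, was at 4.57, 4.91 and 4.90 in acute, 11.31 and 11.78 in re-stimulated and 9.53, 9.49 and 8.87 in naive cells. It was thus low in acute cells and rose 108-fold (adjusted p = 0.000154). Egln3, an oxygen-sensing prolyl hydroxylase, rose about 54.9-fold, being above background on no acute array, and Slc16a3, the lactate exporter MCT4, rose 22.9-fold. Both were also called higher than in naive cells, by 3.40 and 3.16 log2 units. The replicate differences of Ankrd37, Egln3 and Slc16a3 were 0.91, 1.03 and 1.39. Ndrg1 and Adm, both induced by low oxygen in other settings, fell 12.0-fold and 6.95-fold, with replicate differences of −1.52 and −0.98. The glycolytic enzyme Ldha rose by 1.58 log2 units. NRF2 targets, the antioxidant genes, rose in 11 of 17 tested and fell in 1, with a median of 1.24. Osgin1 rose 16.7-fold, from 7.40, 7.36 and 8.28 to 11.89 and 11.59 (adjusted p = 0.000786), with naive values between 10.56 and 11.55. Against naive cells 1 of the 17 was called higher, or 5 without naive replicate 3, beside 3.27% and 11.7% of all probes. Hmox1, which breaks down haem, rose 12.0-fold, from 13.52, 12.09 and 15.06 to 16.99 and 17.31 (adjusted p = 0.0169). That call was lost without either re-stimulated replicate (adjusted p = 0.064 and 0.085).

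Cell cycle genes were mostly lower. Of 47 tested genes of DNA replication and mitosis, 30 fell, 3 rose and 14 did not pass, with a median of −1.49. A replicate difference of 1.5-fold or more was found in 20 of the 47 and in 15 of the 30 that fell. Ccnb2, a mitotic cyclin, was at 10.59, 10.15 and 10.18 in acute, at 7.05 and 5.36 in re-stimulated and at 11.68, 11.91 and 10.31 in naive cells (17.1-fold lower than acute, adjusted p = 0.00229). Mcm10, a replication initiation factor, fell 14.3-fold (adjusted p = 0.00139) and lay below all naive values of 8.37 to 9.09. Against naive cells 16 of 47 genes were called lower and 0 higher, or 38 and 0 of 46 without naive replicate 3. Among all probes 2.39% were lower and 3.27% higher, or 13.4% and 11.7% without that array. E2f2, a factor of S phase genes, rose 7.32-fold over acute cells to 9.59 and 9.06, below the naive values of 11.63, 11.62 and 10.12.

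Of 16 tested genes of prostaglandin and leukotriene synthesis 3 fell, 4 rose and 9 did not pass. Among all probes 17.0% fell and 17.2% rose. Ptgs2, the inducible cyclooxygenase, was at 14.28, 13.79 and 13.49 in acute and 11.89 and 12.39 in re-stimulated cells, a 3.27-fold fall (adjusted p = 0.00807) lost without re-stimulated replicate 1 (adjusted p = 0.05), against at most 4.86 in naive cells. Ptges, the next enzyme towards prostaglandin E2, rose 6.67-fold (adjusted p = 0.000704) and Ptger2, one of its receptors, rose 11.5-fold (adjusted p = 0.00237). Hpgd, which inactivates prostaglandins, was above background on no re-stimulated array and fell about 13.2-fold. Mgll, a lipase that releases arachidonic acid, fell 72.4-fold, from 11.45, 11.66 and 12.03 to 5.73 and 5.34 (adjusted p = 0.000177), and was 4.39 below naive cells (adjusted p = 0.00962).

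Among proteases and their inhibitors 9 of 22 tested fell and 5 rose, beside 17.0% and 17.2% of all probes. Adamts4, an aggrecan-cleaving protease, was called lower by more than 1 probe, about 119-fold for the probe with the largest change. Serpinb2, an inhibitor of plasminogen activators, rose 12.2-fold and Timp1, an inhibitor of matrix proteases, rose 14.0-fold, with replicate differences of 2.50 and 0.99. Of 33 tested lysosomal genes 4 fell and 4 rose, beside the same shares of all probes. Atp6v0d2, a proton pump subunit, fell 5.64-fold, and Tfeb (Tcfeb on the array), a regulator of lysosomal genes, rose 11.2-fold over acute cells, to 8.58 and 8.72, below the naive values of 9.66, 9.62 and 9.33.

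Large gene families were also tested. Of 55 respiratory chain genes 7 rose and 0 fell, with differences from −0.40 to 0.96. Of 45 cytosolic ribosomal protein genes 7 fell and 0 rose, beside 17.0% and 17.2% of all probes, with a median of −0.53, although with near-identical copies in the genome their probes may read more than 1 gene. Of 26 cholesterol genes 2 fell and 2 rose, Ch25h, which makes an oxysterol, falling from 12.92, 12.66 and 11.81 to 10.13 and 7.62 (adjusted p = 0.0133).

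**Figure D4:**
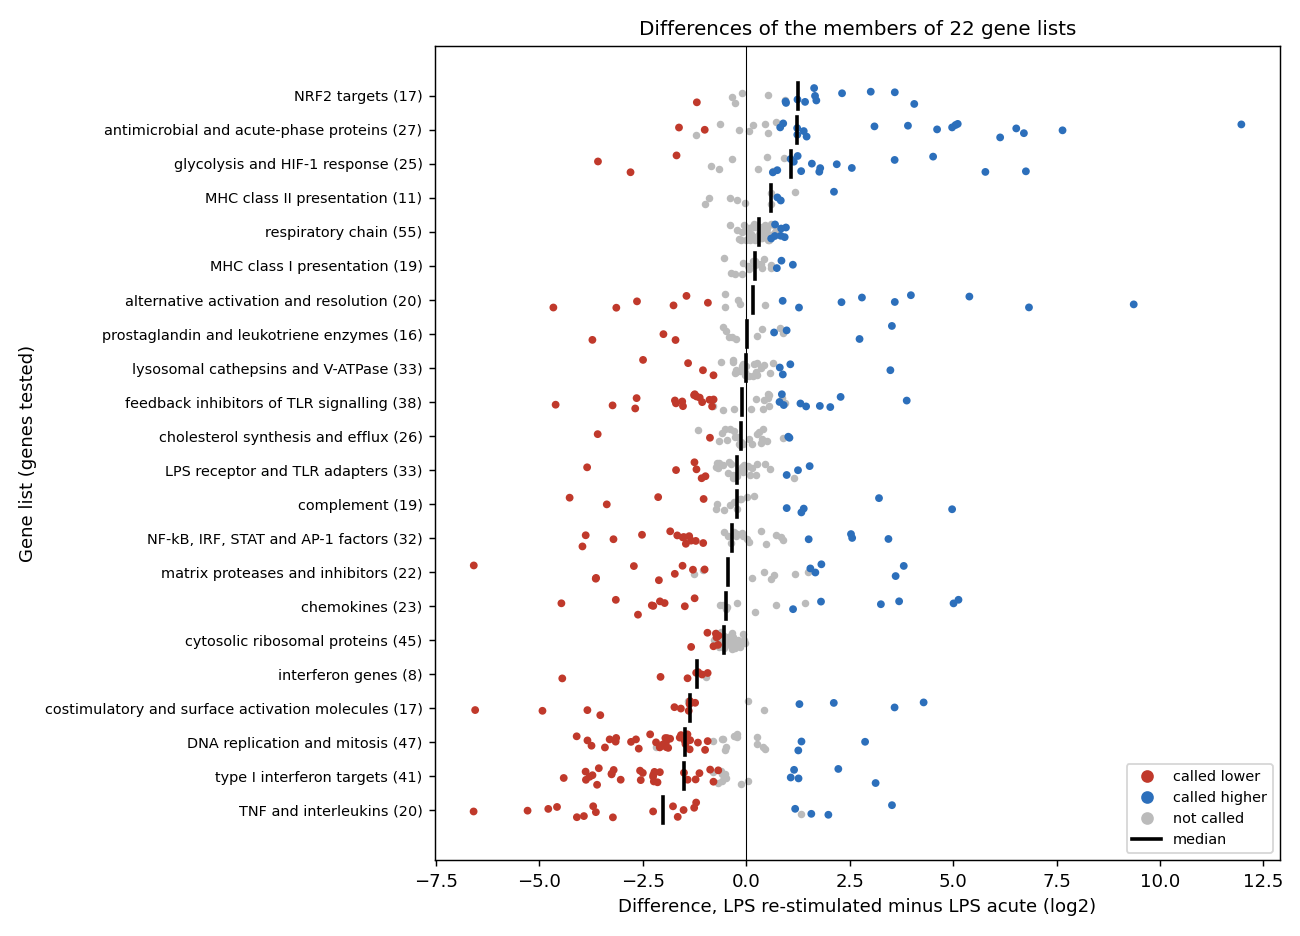
Difference between LPS re-stimulated and LPS acute cells in log2 units (horizontal axis) for the tested genes of 22 gene lists (vertical axis, with the number tested), coloured by call, with a black line at each median. The TNF and interleukin list has the lowest median (−2.01) and the NRF2 targets the highest (1.24).

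The 10 largest falls and the 10 largest rises included further genes, 1 fall being known only by an identifier. Tnn, the matrix protein tenascin-W, and Cobll1 were above background in acute cells on 3 arrays and on neither re-stimulated array. They were about 93.7-fold and 76.1-fold lower, with replicate differences of −1.03 and −2.18. Raver2, Cd209f and Fcrls fell by 6.94, 6.56 and 6.16 log2 units, with replicate differences of −4.82, −4.01 and −2.38. For Raver2 and Cd209f, naive replicate 3 had 9.17 and 9.69 and the other naive arrays 4.40 or less. The largest rises besides S100a9, Arg1 and Ly6g were Ly6a, Ly6c1, Ly6f and Stfa1, with replicate differences of 7.18, 6.23, 3.25 and 9.59, and 3 that carry only a clone or identifier name. Ly6f was above background on no acute array, rose about 432-fold (adjusted p = 0.000154) and was 8.38 above naive cells (adjusted p = 0.0245). Ly6 genes lie side by side and are alike in sequence, so probes for one may read another.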

How the data were processed

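RNA of 27 BMDM cultures was labelled with Cy3 and hybridized to 1-colour Agilent mouse arrays. The authors deposited scanner intensities (Feature Extraction 10.7.3.1) and, for 25 arrays, log2 values made with limma by RMA background correction and quantile normalization. The deposited log2 values were used as given. The authors' deposited intensities gave the background marks, slides and alternatives, with the median signal minus the local background, RMA-corrected and quantile-normalized, lying a median of 0.0355 from the deposited values. Array positions are in mm9, and names are those of the array files. An earlier version of the array design was used to read the acute arrays, and 6517 probes are named differently in it.

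Probes marked as well above background by 2 or more arrays of 1 group were tested with limma 3.58.1 in R 4.3.3 (lmFit, eBayes, Benjamini-Hochberg over all tested probes). A call needed an adjusted p under 0.05 and 1.5-fold. The fit was also run on 28592 simulated probes, of which only 50 were changed at each size, while 34.2% were called here. There, 0 of 50 differences of 1 log2 unit, 31 of 50 of 2, 43 of 50 of 4 and 49 of 50 of 6 were recovered, with 5 false calls. The adjusted p is stricter where few probes change, so these recoveries do not describe this comparison, which called some differences under 1 log2 unit. The number of arrays limits the precision. A gene was represented by its tested probe with the highest mean, and named genes are those the study names, the 10 largest falls and rises, and up to 3 called members of each of 22 lists in each direction. Where no array of a group was above background, lower values were raised to the lowest signal well above background on their array. Many undetected values already lay above that signal, so the resulting fold change is not a lower limit. Members and lists were chosen with earlier results of these data known. Replicates come from separate marrow pools or separate mice, as the study's methods give both, and p-values measure the spread between these arrays. The alternatives cover background, scaling, filter, model, slide and replicate block, and each array left out. Promoters are from RefSeq (GRCm38.p6).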

Additional observations from a re-analysis of the deposited data

Results flagged for a closer look

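The LPS re-stimulated replicate 3 array, left out of the deposited normalized table, was normalized again with all 27 arrays. On it, 92.3% of probes were well above background. On that scale, 3 of 7 genes looked at lay above all naive arrays. Il12b was at 12.4, against 7.58 and 7.83 on the other re-stimulated arrays and 12.7 to 12.9 in acute cells. Arg1 was at 7.37, against 11.7 and 11.6 on the other re-stimulated arrays and at most 3.45 in naive cells. Cd69 was at 8.67, against 9.55 and 9.15 on the other re-stimulated arrays and at most 8.09 in naive cells. Ngp was at 10.72, against 9.81 and 9.12 on the other re-stimulated arrays. S100a9, Ltf and Ly6g were at 5.30, 2.76 and 4.51, against 14.7 to 15.1, 10.4 to 10.6 and 11.7 to 12.8 on the other re-stimulated arrays. No cause was tested.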

How the results depend on the processing

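Of 9772 probes called, 4853 were lower and 4919 higher. Adding LPS re-stimulated replicate 3 from the scanner files left 1799 calls (1031 lower, 768 higher), and 75 of the 146 named differences lost their call, Il12b (adjusted p = 0.18), S100a9 (0.13) and Ifnb1 (0.1) among them, while Cdk2 turned from 1.33 to −0.083. The cause was not tested, and the array is the one its submitters rejected. Median scaling called 3206 probes lower (7007 in all) and moved the median of all probes to 0.11. Leaving out 1 array gave 4843 to 11013 calls, 2270 to 5401 lower and 2573 to 5612 higher. With the replicate block there were 10619 calls (5466 lower, 5153 higher). Same-numbered arrays deviated together only weakly (r = 0.12 and 0.09 over 28592 probes), so the numbers were not taken as pairs, and the block ended 3 named calls and added 2. One fit over 9 groups called 9301 probes, and with slide as a random block 9448, losing 18 and 21 of the 146 named calls and differences, Il1a, Ccl2, Cxcl9, Inhba, Zbp1, C3, Ptgs2, Cd55, Ltf, Chil3, Stfa1 and Raver2 among both. Adjusted p alone called the same 9772 probes. No other setting moved these counts by 1.5 times or more. Limiting the test to probes with replicate differences under 1.5-fold, an alternative chosen after seeing the data, called 8004. Another such alternative left out naive replicate 3 and raised the calls between naive and re-stimulated cells from 1581 (668 lower, 913 higher) to 6461 (3448 lower, 3013 higher), and to 6403 (3425 lower, 2978 higher) with slide as a replicate block. Signal over background limits genes near the floor.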
